A study of Mus musculus with 9 samples.

Results

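The arginine mutant of histone H4, H4K91R, was compared with the wild-type histone, H4WT, in neural cultures grown from mouse embryonic stem cells. The comparison took 6 of the study's 9 libraries, 3 per group, chosen by their group labels, and all 24100 genes of the count table. Of these genes, 14761 had enough counts to be tested. Cells of every group carried a stably expressed transgene, delivered by the PiggyBac transposon, that encodes HA-tagged H4 (HA is an epitope for antibodies), given as PiggyBAC_H4WT_3HA, PiggyBAC_H4K91R_3HA and PiggyBAC_H4K91Q_3HA. A lysine of the tagged histone was replaced by arginine in H4K91R and by glutamine in H4K91Q, and H4WT kept the lysine. The labels name a stable transgene and no change to the cells' own H4 genes, so a mutant culture is described as expressing the mutant histone beside its own. They give no clone numbers, parent line or promoter, carry a tag 4Ddif that they do not explain, and do not tell whether the libraries of a group came from separate lines or differentiations. All p-values therefore measure the spread between these libraries, which may be technical. The 3 H4K91Q libraries are used below to ask which changes of H4K91R were not seen in the glutamine mutant.

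The mutated lysine lies where the histone H4 surface meets histone H2B in the nucleosome. Arginine keeps its positive charge, while glutamine removes it and is often used to stand in for an acetylated lysine. Several of the gene groups described below belong to 1 well-studied circuit. Serum response factor (SRF) and its MRTF coactivators turn on actins, myosins and calponins when actin filaments assemble, YAP with TEAD factors turns on matricellular genes in spread cells, and TGF-beta signalling drives the same contractile genes in mesenchyme and smooth muscle. Neurons that mature switch on a different set, the genes of vesicle release, postsynaptic scaffolds, ion channels and neuronal splicing.

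Total counts per library ran from 8970553 to 28887501. The TMM factors described next were 0.911 to 0.935 in H4WT and 1.04 to 1.06 in H4K91R. Counts are given as CPM, counts per 1000000 of a library total scaled by the trimmed mean of M-values (TMM), and changes as log2 differences with their standard error (n = 3 libraries per group). A gene counted as risen or fallen where edgeR's quasi-likelihood test, with Benjamini-Hochberg adjustment over all tested genes, gave an adjusted p below 0.05. By that rule 20.9% of the tested genes rose in H4K91R (3092 genes) and 25.1% fell (3705 genes). At least 2-fold increases made up 9.18% of tested genes and at least 2-fold decreases 4.59%. The libraries of H4K91R and H4WT did not overlap for 8134 genes, 55.1% of those tested, against 46.0% called in either direction. The shares 20.9% and 25.1% are the background against which each list below is read, and the median change of all genes was -0.03. No list was tested as a set. With library size in place of TMM the calls shifted to 5031 risen and 2013 fallen genes (71.4% of the called genes risen in place of 45.5%), and the median of all genes moved by 0.18. A change of 0.18 or less in either direction therefore depends on the scaling.

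The neural label was checked against defining genes. Tubb3, the neuronal beta-tubulin, stood at 54.8, 84.9 and 75.9 CPM in the H4WT libraries and at 170, 196 and 230 CPM in H4K91R. Map2, a dendritic microtubule protein, stood at 34.9, 45.4 and 50.1 CPM in H4WT and at 199, 250 and 214 CPM in H4K91R. Sox2, a neural progenitor factor that embryonic stem cells also make, stood at 12.3, 14.2 and 12.6 CPM in H4WT and at 38.1, 54.3 and 52 CPM in H4K91R. Neural genes were thus detected in every library, and all 3 were higher in each H4K91R library than in any H4WT library. In bulk RNA, fewer cells of a type and less RNA per cell cannot be told apart, and this holds for every group below. The cultures also held strong expression of genes that are not particular to neural cells. The SRF and MRTF list summed to 21260 to 24910 CPM in H4WT. That sum includes genes that every cell uses, such as the cytoplasmic actin Actg1, so it does not measure a non-neural part of the cultures.

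**Figure D1:**
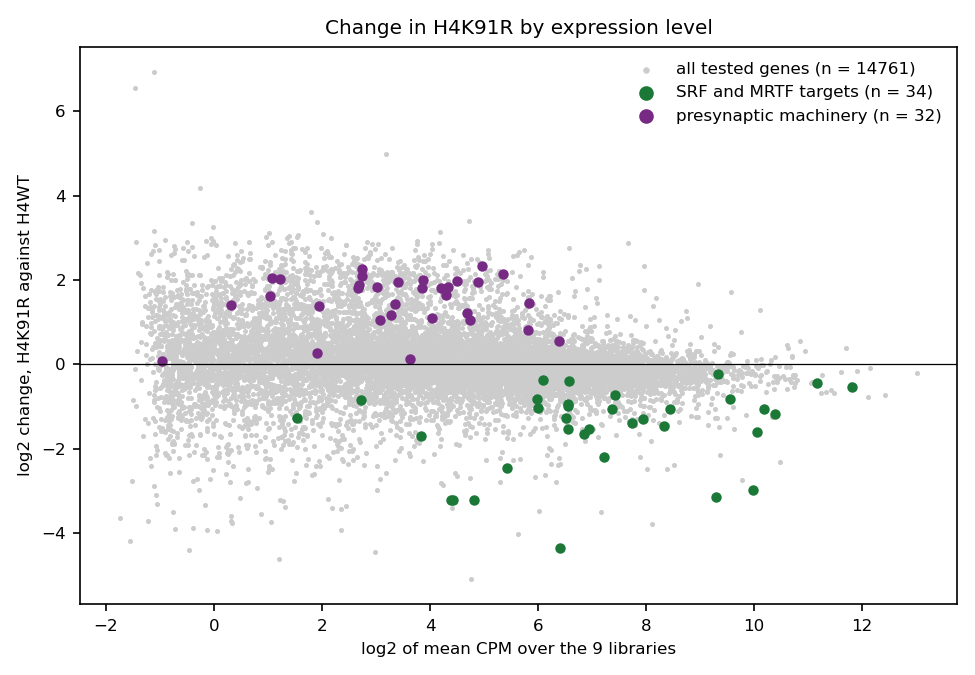
Log2 change in H4K91R against H4WT (vertical axis) by log2 of the mean CPM over the 9 libraries (horizontal axis), each point 1 tested gene, with the SRF and MRTF targets in green and the presynaptic genes in purple. All 34 green points lie below 0 and all 32 purple points above it, and 29 of the purple genes were called.

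Genes of the contractile actin cytoskeleton fell together in H4K91R. All 34 tested members of the SRF and MRTF list fell, 23 of them at least 2-fold, with a median log2 change of -1.27. Myl9, the regulatory myosin light chain of smooth muscle (Entrez 98932, chromosome 2, 156775408 to 156781657), stood at 220, 206 and 229 CPM in the 3 H4WT libraries and at 78.1, 70.3 and 76.4 CPM in H4K91R. The groups did not overlap, and Myl9 fell by 1.54 ± 0.072 on the log2 scale (edgeR, Benjamini-Hochberg adjusted p = 3.51e-08). Cnn1, calponin, which restrains actomyosin in smooth muscle (Entrez 12797, chromosome 9, 22099221 to 22109221), went from 51.5, 48.3 and 59 CPM to 6.96, 4.64 and 4.92 CPM. The groups did not overlap here either, with a fall of 3.23 ± 0.15 on the log2 scale (edgeR, adjusted p = 3.51e-08). Lmod1, which seeds actin filaments in smooth muscle, fell by 3.21 ± 0.19 on the log2 scale and Actg2, the enteric smooth muscle actin, by 4.35 ± 0.31. Srf itself, which encodes the factor, changed less. Its libraries held 116, 107 and 133 CPM in H4WT and 94.6, 87.4 and 87 CPM in H4K91R, a fall of 0.40 ± 0.089 on the log2 scale that did not pass with library size scaling (edgeR, adjusted p = 0.00235 with TMM and 0.0554 with library size). Actg1, the cytoplasmic gamma actin that every cell uses, stood at 4750, 4326 and 4464 CPM in H4WT and 3258, 2978 and 3173 CPM in H4K91R. Its decrease of 0.52 ± 0.067 on the log2 scale was among the smaller ones of the list. Srf, Actg1 and Mylk were singled out after their values were seen. The list's count held at 34 or 33 fallen members when any library was left out, and with library size scaling 31 fell and the median was -1.09. All 34 also fell in H4K91Q, measured against the same H4WT libraries, and 1 of them, Mylk, the kinase of myosin light chains, differed between the mutants (-0.75 ± 0.13, edgeR, adjusted p = 0.00788).

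Promoter sequences are shown for 4 of these genes because the SRF binding motif, the CArG box, lies within them. The window ran from 250 bases before to 50 bases after the transcription start (RefSeq, GRCm38.p6), and both strands were searched for the motif, which reads the same on either. Capitals mark each match. Myl9 is on the plus strand at chr2:156775214-156775513, Acta1 (skeletal muscle actin) on the minus strand at chr8:123894726-123895025, Actg1 on the minus strand at chr11:120348446-120348745, and Srf on the minus strand at chr17:46556113-46556412.
Myl9: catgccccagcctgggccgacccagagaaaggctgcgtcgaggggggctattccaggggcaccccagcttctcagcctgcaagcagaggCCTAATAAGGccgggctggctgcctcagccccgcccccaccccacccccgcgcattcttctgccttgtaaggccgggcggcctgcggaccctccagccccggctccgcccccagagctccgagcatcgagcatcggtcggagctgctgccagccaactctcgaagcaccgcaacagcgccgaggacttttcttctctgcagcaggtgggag
Acta1: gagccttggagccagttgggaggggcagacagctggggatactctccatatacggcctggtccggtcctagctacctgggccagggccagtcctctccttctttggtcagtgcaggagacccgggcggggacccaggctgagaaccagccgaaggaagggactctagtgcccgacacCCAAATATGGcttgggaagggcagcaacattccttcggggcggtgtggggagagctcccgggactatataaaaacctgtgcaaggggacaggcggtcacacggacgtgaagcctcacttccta
Actg1: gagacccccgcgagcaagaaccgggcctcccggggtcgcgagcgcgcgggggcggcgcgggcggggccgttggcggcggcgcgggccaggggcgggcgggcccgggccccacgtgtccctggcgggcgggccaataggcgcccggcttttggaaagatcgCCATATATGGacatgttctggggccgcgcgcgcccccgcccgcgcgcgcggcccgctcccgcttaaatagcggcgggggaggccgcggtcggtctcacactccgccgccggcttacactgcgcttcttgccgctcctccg
Srf: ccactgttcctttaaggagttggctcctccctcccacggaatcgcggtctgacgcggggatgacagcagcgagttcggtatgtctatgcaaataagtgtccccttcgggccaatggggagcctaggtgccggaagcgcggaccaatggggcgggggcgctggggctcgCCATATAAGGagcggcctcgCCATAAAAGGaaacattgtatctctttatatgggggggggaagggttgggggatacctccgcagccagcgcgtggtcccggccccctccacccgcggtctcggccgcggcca
The match began 161 bases before the start in Myl9, 73 in Acta1 and 90 in Actg1, and Srf held 2 matches, 82 and 62 bases before its start. A promoter sequence was at hand for 29 of the 34 listed genes, and 10 of them (34.5%) held a CArG box, against 183 of 11629 tested genes (1.57%) and 1.31% of all 14823 promoters of these genes. Of the 183 tested genes with a match, 64 fell (35.0%) and 37 rose (20.2%), beside 25.1% and 20.1% of all tested genes with a promoter sequence. The listed targets are among those 64. A match describes the letters in this window only.

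Other groups tied to spread and contractile cells were lower as well. Of the YAP and TEAD targets 18 of 22 fell and 0 rose, with a median of -0.82. Ccn2, a matricellular protein of healing tissue (Entrez 14219, chromosome 10, 24595442 to 24598683), stood at 913, 642 and 868 CPM in H4WT and at 206, 138 and 119 CPM in H4K91R. The highest H4K91R library lay below the lowest H4WT library by more than 3-fold, and the log2 change was -2.38 ± 0.18 (edgeR, adjusted p = 4.56e-07). Ccn1, a close relative, changed by -1.26 ± 0.092 and Amotl2, a YAP target that feeds back on the pathway, by -0.89 ± 0.073. The letters ACATTCCA of the TEAD element, searched on both strands, lay in the promoter window of 1 of 15 YAP and TEAD genes with a sequence (6.67%) and of 0.998% of tested genes. Of the 116 tested genes with a match 28 fell (24.1%) and 28 rose (24.1%), beside 25.1% and 20.1% of all tested genes with a promoter sequence. In the list of TGF-beta ligands, receptors and targets 21 of 29 fell and 3 rose. Thbs1, thrombospondin, which frees latent TGF-beta (Entrez 21825, chromosome 2, 118111876 to 118127133), went from 2265, 1646 and 2294 CPM to 381, 279 and 272 CPM, a change of -2.73 ± 0.16 (edgeR, adjusted p = 1.02e-07). The groups did not overlap. Inhba, the activin A subunit, fell by 3.40 ± 0.25 on the log2 scale, and Ltbp4, a latent TGF-beta binding protein, rose by 0.73 ± 0.086. Immediate-early genes, which also answer handling of the cells and some of which SRF controls, moved with these groups: of 16 genes 11 fell and 2 rose (Egr2 and Ier2, named after their values were seen). The Ier2 call was lost without H4WT replicate 1 or 3 or H4K91R replicate 3. The sum of the 16 genes went from 1703 to 1839 CPM in H4WT to 1265 to 1407 CPM in H4K91R. Their part in the falls above was not tested.

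Families of the cell surface and matrix split by member. Of the actins and tropomyosins 12 of 13 fell, with Tpm1 at -1.60 and Tpm2 at -2.20, and the heavy chain Myh11 at -5.08 led 15 falls and 5 rises among 32 myosins. Among 19 integrins 11 fell and 4 rose. Itgb1, the beta subunit shared by most matrix-binding integrins (Entrez 16412, chromosome 8, 128685654 to 128733579), dropped from 2236, 1837 and 2179 CPM to 1028, 842 and 760 CPM (-1.25 ± 0.11, edgeR, adjusted p = 1.3e-06). Of the laminins and nidogens 8 of 12 fell, among them Nid1 (-1.13), a linker of the basement membrane, while the laminin chain Lama4 rose (1.12). Of the S100 and annexin genes 11 of 18 fell, with the membrane-binding Anxa2 at -1.22 and Anxa3 at -2.61. Collagens moved both ways, 15 up and 12 down of 38. Col6a2, a chain of the beaded-filament collagen, went from 126, 98.4 and 103 CPM to 422, 355 and 321 CPM (1.75 ± 0.13, edgeR, adjusted p = 3.98e-07), whereas Col8a1, a short-chain collagen of vessel walls, changed by -2.68 ± 0.14. Among the largest single decreases outside these families was Hmcn1, hemicentin, a very large matrix protein (Entrez 545370, chromosome 1, 150562500 to 150993652). It stood at 154, 122 and 216 CPM in H4WT and 18.5, 13.3 and 11.3 CPM in H4K91R (-3.48 ± 0.24, edgeR, adjusted p = 2.75e-07), again without overlap.

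Genes of inflammation and clotting were lower too. Of the NF-kB and chemokine list 14 of 22 fell and 1 rose, with a median of -0.64, and of the complement and coagulation list 13 of 20 fell and 1 rose. Ptgs2, the inducible prostaglandin synthase, changed by -3.21 ± 0.33 and Tnfrsf11b, the decoy receptor osteoprotegerin, by -3.37 ± 0.30. F2r, the thrombin receptor, changed by -2.19 ± 0.15. Of 24 serpins 13 fell and 4 rose. Leukocytes were barely represented: the marker list of macrophages, microglia and blood had 21 genes in the table, 16 of them below the test's filter, and Tyrobp, C1qa, C1qc, Adgre1, Hbb-bs and Hbb-bh1 had no count in any of the 6 libraries. The summed counts of the 16 untested genes were 5 to 31 per H4WT library and 5 to 19 per H4K91R library. Of the 5 tested markers 3 fell and 1 rose. Their summed level did not fall, at 175.5 to 190.9 CPM per H4WT library and 196.4 to 222.3 CPM per H4K91R library. Csf1r, a receptor of macrophages and trophoblast, changed by -1.20 ± 0.19.

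**Figure D2:**
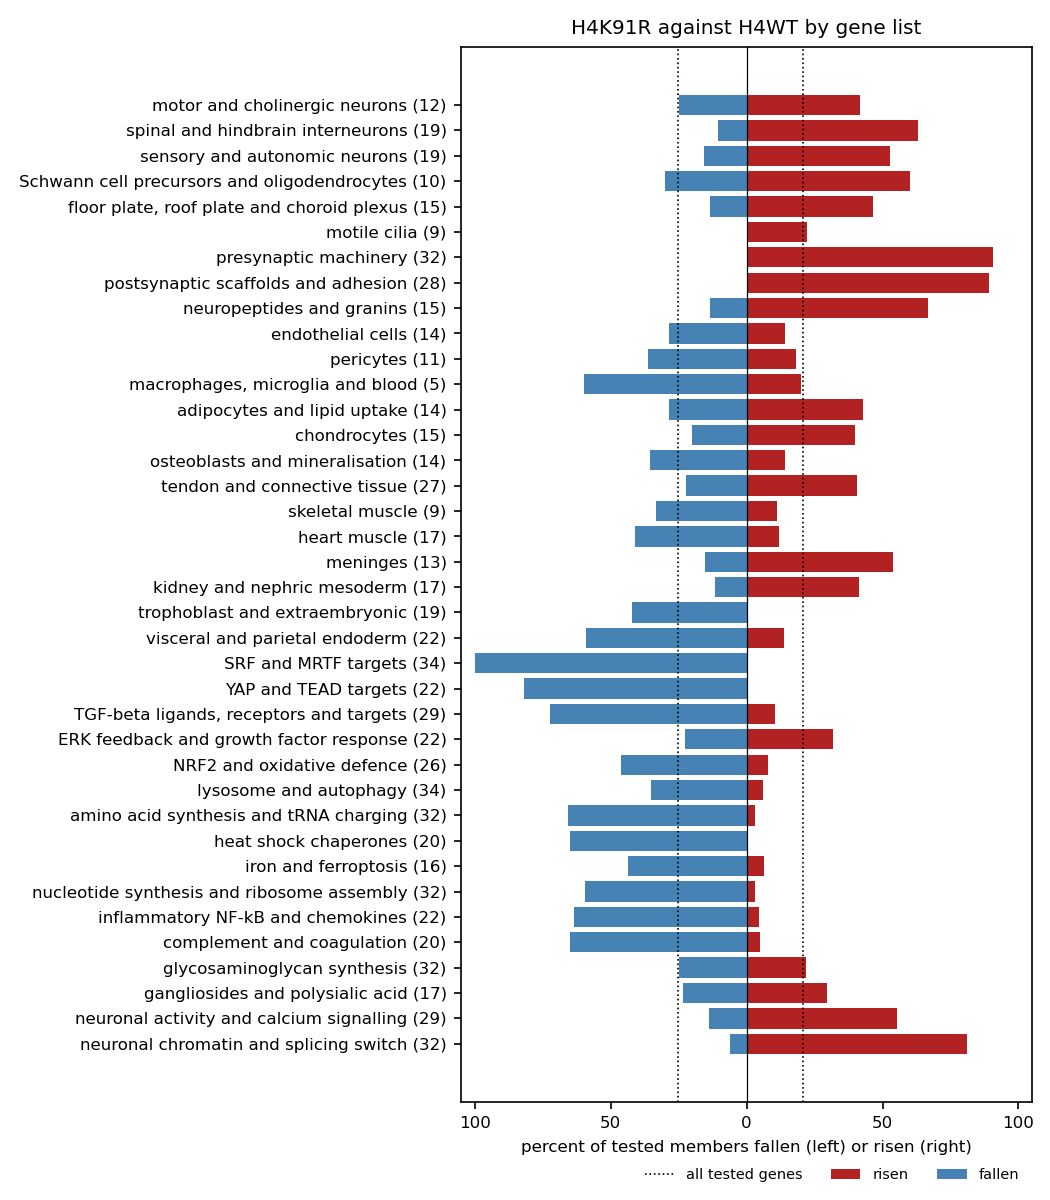
Share of tested members of each pathway or cell type list (gene families are not drawn) that fell (blue, left) or rose (red, right) in H4K91R against H4WT, in percent, with the number of tested members in parentheses and the shares of all tested genes (25.1% and 20.9%) as dotted lines. The SRF and MRTF list stands at 100% fallen, and the presynaptic and postsynaptic lists at 90.6% and 89.3% risen.

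Housekeeping groups moved by smaller amounts, and their counts depended on the scaling. Of the genes for amino acid synthesis and tRNA charging 21 of 32 fell and 1 rose, with a median of -0.34. Library size scaling gave 11 and 4. Slc7a1, the cationic amino acid transporter (Entrez 11987, chromosome 5, 148327410 to 148399904), fell the furthest of those named, from 127, 120 and 143 CPM to 64.9, 55.9 and 49 CPM (-1.19 ± 0.12, edgeR, adjusted p = 6.18e-06). Slc3a2, the heavy chain of amino acid exchangers, changed by -0.52 ± 0.070, and Cbs, of cysteine synthesis, by 0.87 ± 0.19. The element TTGCATCA, searched on both strands as a site of the ATF4 type, lay in the promoter window of 7 of 23 genes of this list with a sequence (30.4%) and of 0.688% of tested genes. Of the 80 tested genes with a match 23 fell (28.7%) and 16 rose (20%). The shares of all tested genes with a promoter sequence were 25.1% and 20.1%. Of the nucleotide synthesis and ribosome assembly list 19 of 32 fell and 1 rose (11 and 2 with library size), and of the translation initiation factors 26 of 53 fell and 2 rose (9 and 5). Cytosolic ribosomal proteins were near the median of all genes. There 7 of 80 fell and 0 rose, the median was -0.07, and library size scaling turned it to 0.12. The fallen count was 4 without H4K91R replicate 2, 22 without H4K91R replicate 3 and 11 without H4K91Q replicate 3. Respiratory chain subunits were mostly uncalled, with 1 of 96 risen and 3 fallen, but library size scaling gave 25 risen and 0 fallen and moved the median from 0.02 to 0.21. Without single libraries 1 to 6 of them fell.

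Heat shock chaperones fell in 13 of 20 cases and rose in 0. Hspb1, a small heat shock protein that protects actin filaments (Entrez 15507, chromosome 5, 135887919 to 135889563), stood at 203, 228 and 196 CPM in H4WT, 65.8, 48.8 and 62.7 CPM in H4K91R and 72.3, 87.8 and 80.4 CPM in H4K91Q. All H4K91R libraries lay below all H4K91Q libraries, and both groups lay below H4WT. Its change was -1.82 ± 0.11 against H4WT and -0.44 ± 0.11 against H4K91Q (edgeR, adjusted p = 1.24e-07 and 0.04). The call against H4K91Q was lost in 5 single-library omissions, with adjusted p up to 0.169. Cryab, the related alpha-B crystallin of muscle, changed by -1.13 ± 0.070. Library size scaling moved the list's median from -0.31 to -0.13.

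Synaptic genes showed the opposite behaviour. Of the presynaptic machinery 29 of 32 genes rose and 0 fell, 27 by at least 2-fold, with a median of 1.72. Of the postsynaptic scaffolds and adhesion proteins 25 of 28 rose and 0 fell, with a median of 1.58. In H4K91Q, 26 presynaptic genes rose and 1 fell, and 25 postsynaptic genes rose and 0 fell (medians 1.17 and 1.23). Stx1a, Rims1 and Slc17a7 were the 3 presynaptic genes that did not pass, at 0.12, 0.28 and 0.08, the last turning to -0.12 without H4WT replicate 3. The summed presynaptic level went from 303.5 to 339.3 CPM per H4WT library to 801.6 to 844.1 CPM per H4K91R library. Nrxn2, a presynaptic neurexin that binds postsynaptic partners (Entrez 18190, chromosome 19, 6418756 to 6533217), stood at 8.18, 11.3 and 10.9 CPM in H4WT and 51, 54.8 and 51 CPM in H4K91R. The lowest H4K91R library exceeded the highest H4WT library more than 4-fold, and the log2 change was 2.33 ± 0.12 (edgeR, adjusted p = 4.73e-08). Rab3c, a GTPase of synaptic vesicles (Entrez 67295, chromosome 13, 110054187 to 110280996), went from 11.5, 14.3 and 16 CPM to 52.8, 68.7 and 63.8 CPM (2.14 ± 0.12, edgeR, adjusted p = 7.49e-08), and Snap25, a SNARE protein of vesicle fusion, from 7.58, 7.96 and 7.35 CPM to 25.9, 25.3 and 29.6 CPM (1.80 ± 0.11, edgeR, adjusted p = 1.09e-07). On the postsynaptic side Slitrk2, a synaptic adhesion protein (Entrez 245450, chromosome X, 66648951 to 66661402), went from 7.21, 6.85 and 8.21 CPM to 35.5, 40.2 and 30.9 CPM (2.29 ± 0.12, edgeR, adjusted p = 4.73e-08). None of these genes had overlapping groups. Lrrc4b, another leucine-rich adhesion protein, rose by 2.56 ± 0.18 and Slitrk1 by 2.75 ± 0.19.

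**Figure D3:**
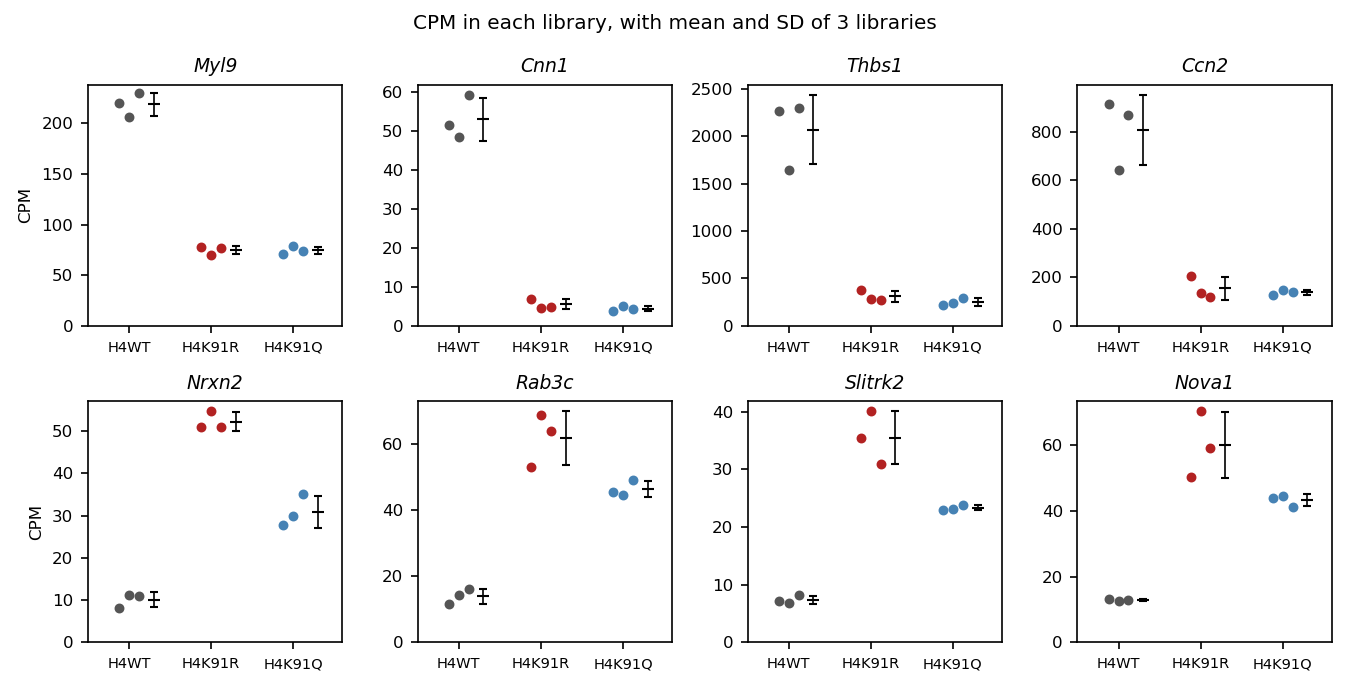
CPM (vertical axis, from 0) in each library for 4 genes that fell and 4 that rose in H4K91R, grouped as H4WT, H4K91R and H4K91Q, with the mean and SD of the 3 libraries beside the points. H4K91R and H4WT do not overlap in any of the 8 panels. H4K91Q is close to H4K91R for Myl9, Cnn1, Thbs1 and Ccn2 and lies between H4WT and H4K91R for Nrxn2, Rab3c, Slitrk2 and Nova1.

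Receptors and channels moved unevenly. Among the glutamate receptors 16 of 21 rose and 2 fell. Gria2, the AMPA receptor subunit that sets calcium permeability (Entrez 14800, chromosome 3, 80681450 to 80804227), went from 4.81, 5.93 and 6.61 CPM to 21.8, 28.1 and 29.2 CPM (2.17 ± 0.14, edgeR, adjusted p = 2.09e-07), while the related subunit Gria3 changed by -0.97 ± 0.15. Among the GABA and glycine receptors 9 of 13 rose and 1 fell, with the GABA-B receptor Gabbr1 at 1.22 and the embryonic glycine receptor Glra2 at 2.53. Sodium and calcium channels rose in 19 and fell in 4 of 34 cases. There the embryonic sodium channel Scn3a rose by 2.25 ± 0.14, and Scn9a, the channel of sensory neurons, fell by 1.81 ± 0.32 on the log2 scale. Potassium channels rose in 27 and fell in 9 of 66 cases, but their summed level did not rise. It was 376.5 to 471.4 CPM per H4WT library and 358.3 to 403.9 CPM per H4K91R library. Kcnq5, a channel of the neuronal M-current that smooth muscle also makes, went from 34.4, 42.2 and 58.2 CPM to 13.5, 13.7 and 8.76 CPM (-1.88 ± 0.18, edgeR, adjusted p = 3.79e-06). Chrnb2, the beta subunit of brain nicotinic receptors, went from 2.52, 4.45 and 3.43 CPM to 15.5, 16.7 and 20.5 CPM (2.23 ± 0.18, edgeR, adjusted p = 8.87e-07). Within the same family of amine and nicotinic receptors 7 of 24 rose and 9 fell, with the adrenergic receptors Adra1d and Adrb3 at -3.42 and -1.77.

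Secreted signals of neurons did not all rise. Of the neuropeptide and granin genes 10 of 15 tested (27 listed) rose and 2 fell, the fallen being Nts, neurotensin (-1.02), and Cpe, a prohormone-processing enzyme (-0.21), whose calls were lost in 10 and 5 alternatives. The rises included Scg3, a secretory granule protein, from 4.21, 7.0 and 5.51 CPM to 29, 32.2 and 29.7 CPM (2.36 ± 0.15, edgeR, adjusted p = 1.31e-07), and the prohormone convertase Pcsk2 (2.19). Bdnf, the neurotrophin, fell from 57.6, 30.3 and 46.4 CPM to 8.17, 5.98 and 4.14 CPM (-2.80 ± 0.25, edgeR, adjusted p = 1.65e-06). Slc5a7, the choline transporter of cholinergic neurons, also fell, from 63.9, 52.9 and 69 CPM to 14.7, 7.55 and 4.73 CPM (-2.70 ± 0.26, edgeR, adjusted p = 3.24e-06). Both had no overlap between groups, although the lists they belong to, neuronal activity and calcium signalling (16 of 29 risen, 4 fallen) and motor and cholinergic neurons (5 of 12 risen, 3 fallen), had more rises than falls. The motor list's risen count was 1 without H4WT replicate 2, 3 without H4K91R replicate 1 and 2 without H4K91R replicate 2. Chat and Slc18a3, cholinergic genes of the same list, were too low to test. Chat had at most 2 counts in an H4WT library and 1 in an H4K91R library, and Slc18a3 at most 6 and 8. The fall of Slc5a7 is therefore not read as a change in cholinergic neurons.

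Adhesion and guidance families moved in both directions. Of the contactins and related Ig adhesion molecules 25 of 34 rose and 2 fell. Cntn2, an axonal contactin (Entrez 21367, chromosome 1, 132509425 to 132543251), went from 9.98, 13.3 and 15.1 CPM to 42.5, 59.9 and 53.9 CPM (2.01 ± 0.15, edgeR, adjusted p = 4.23e-07). Among the cadherins 12 of 25 rose and 7 fell, with the seven-pass Celsr2 and Celsr3 at 1.73 and 1.97 and the epithelial Cdh1 and Cdh3 at -0.59 and -2.28. Clustered protocadherins, whose isoforms label single neurons, rose in 34 and fell in 4 of 53 cases. Pcdhb11 rose by 1.74 ± 0.15 and the C-type isoform Pcdhgc5 fell by 1.98 ± 0.19 on the log2 scale. Isoforms of a cluster share exons, so the division of reads among them is uncertain. Semaphorins, plexins and neuropilins rose in 17 and fell in 9 of 29 cases, with the membrane-bound Sema6c at 1.78 and the secreted Sema3c at -1.43. Of 20 Eph receptors and ephrins 8 rose and 4 fell. Among them Epha5 rose by 2.27 ± 0.12 and Epha2, the epithelial member, fell by 2.24 ± 0.19 on the log2 scale. Robo3, which guides axons across the midline (Entrez 19649, chromosome 9, 37416045 to 37433436), went from 3.85, 5.15 and 5.27 CPM to 23.2, 33.7 and 24.8 CPM (2.49 ± 0.17, edgeR, adjusted p = 2.83e-07).

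The neuronal switch in chromatin and splicing factors was among the groups with the most rises, 26 of 32. Nova1, a neuronal splicing factor (Entrez 664883, chromosome 12, 46697895 to 46819480), went from 13.2, 12.6 and 12.7 CPM to 50.2, 70.4 and 59.1 CPM (2.22 ± 0.12, edgeR, adjusted p = 5.04e-08), and Celf4, which stabilises synaptic mRNAs, rose by 1.97 ± 0.11. Outside that list Phf21b, a relative of a histone H3 reader of the LSD1 complex (Entrez 271305, chromosome 15, 84785376 to 84856129), went from 2.52, 4.56 and 4.78 CPM to 27.1, 32.2 and 31 CPM (2.87 ± 0.16, edgeR, adjusted p = 7.39e-08). The 2 members that fell were Ptbp1, which represses neuronal exons, and Rcor1, a REST corepressor, at -0.21 and -0.35. Both calls lay near the threshold (edgeR, adjusted p = 0.0495 and 0.0461). The Ptbp1 call was lost in all single-library omissions except that of H4K91R replicate 2, with adjusted p up to 0.845 over all alternatives, and the Rcor1 call in 6 of the 9, with adjusted p up to 0.334. Among the microtubule-associated proteins and stathmins 17 of 23 rose, with Map2 at 2.34 and Dcx, of migrating neurons, at 2.36, and Dpysl3 fell (-0.95). The neuronal kinesin Kif5a rose by 1.92 ± 0.14.

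Among transcription factor families, 10 of 17 SOX genes rose, with Sox3 at 2.72, and 9 of 13 LIM and Iroquois homeobox genes, with Lhx1 at 2.17 and Irx1 at 1.49. The neural bHLH list held a pair of Notch effectors that moved apart. Hes5 (Entrez 15208, chromosome 4, 154960626 to 154962372) went from 4.81, 4.56 and 3.18 CPM to 25.4, 22.1 and 23.3 CPM (2.46 ± 0.16, edgeR, adjusted p = 1.77e-07), whereas Hes1, which mesenchyme also makes, fell by 1.22 ± 0.082 on the log2 scale. Of 392 zinc finger protein genes 113 rose and 31 fell. The risen share, 28.8%, was above the 20.9% of all genes, the fallen share, 7.91%, was below 25.1%, and library size scaling gave 209 risen and 16 fallen.

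Histone genes are of interest because the transgene encodes histone H4, although the table holds the cells' own H4 genes and does not separate the transgene. Their mRNAs mostly lack poly(A) tails, so poly(A) libraries hold few of them, and the copies are nearly identical, so the division of reads among them is uncertain. H4c18 stood at 11.9, 10.7 and 12.5 CPM in H4WT and 1.04, 2.28 and 2.07 CPM in H4K91R (-2.75 ± 0.29, edgeR, adjusted p = 7.17e-06), and H4c8 at 2.29, 3.67 and 2.57 CPM in H4WT and 0.863, 1.42 and 0.492 CPM in H4K91R (-1.67 ± 0.33, edgeR, adjusted p = 0.00111). The groups did not overlap for either gene. H4c9 (8.78, 11 and 11 against 10.6, 6.21 and 6.3 CPM) and H4c12 (0.601, 0.963 and 2.57 against 1.84, 0.472 and 0.886 CPM) overlapped between the groups and did not pass (edgeR, adjusted p = 0.125 and 0.843). Without H4K91R replicate 1, H4c9 passed (edgeR, adjusted p = 0.00459). Over all replication-dependent histones 3 of 33 rose and 11 fell, among them H2bc4 at -1.11. The summed level of the 33 genes did not fall. It was 530.3 to 581.7 CPM per H4WT library and 580.8 to 628.6 CPM per H4K91R library.

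Cell types were read from marker lists. Spinal and hindbrain interneuron markers rose in 12 and fell in 2 of 19 cases, among them Lbx1, a dorsal spinal factor (2.63), and Bhlhe22 (1.67), and sensory and autonomic markers rose in 10 and fell in 3 of 19, with Chga at 2.18. Meningeal markers rose in 7 and fell in 2 of 13, with Nnat up (1.79) and the forkhead factors Foxc1 and Foxc2 down (-0.72 and -1.23). Kidney and nephric markers rose in 7 and fell in 2 of 17, with Pax2, also a gene of the midbrain-hindbrain border, at 2.34. The list of tendon and connective tissue rose in 11 and fell in 6 of 27 cases, with Osr2 at 2.44 and Tnc, tenascin, at -2.16. In that list rises outnumbered falls. Visceral and parietal endoderm markers fell in 13 and rose in 3 of 22 cases, and 1 gene fell by at least 2-fold, with Thbd at -0.96 and Lamb1 at -0.68. Of 14 endothelial markers 2 rose and 4 fell, with Cdh5 at 0.65 and Kdr at -1.40. Heart muscle markers fell in 7 and rose in 2 of 17 cases, with the cardiac actin Actc1 at -2.56. Of 24 skeletal muscle markers 15 were too low to test, and Myf6, Myod1 and Cav3 had no count in any of the 6 libraries. Of the 9 tested, 3 fell, 1 rose and 5 were not called. The fallen included Acta1, which is also in the SRF and MRTF list, and Des (desmin), at -1.70 and -1.14.

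Expression level went with direction. The 14113 tested protein-coding genes, of which 20.9% rose and 25.8% fell, were split into 5 equal bins by mean level. In the lowest bin 784 rose (27.8%) and 413 fell (14.6%), with a median change of 0.22. In the highest bin 274 rose (9.71%) and 1275 fell (45.2%), with a median of -0.17. The median of the lowest bin lies beyond the 0.18 that the scaling moves, and that of the highest bin lies within it. The bins were not recomputed with library size scaling. Medians of the autosomes and chromosome X ran from -0.10 on chromosome 3 to 0.02 on chromosome 11, all within 0.18 of 0. Chromosome Y had 5 tested genes, with a median of -0.22. The same genes were also split into 5 equal bins by genomic span. Of 2823 genes in the longest bin (76.6 to 2390 kb), 810 rose (28.7%) and 827 fell (29.3%). Of 2824 genes in the shortest bin, 608 rose (21.5%) and 472 fell (16.7%).

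The second question was which genes moved in H4K91R but not in H4K91Q. Both mutants were compared with the same 3 H4WT libraries. A gene was assigned to H4K91R alone if it was called against H4WT and, in the same direction, against H4K91Q, and was not called in H4K91Q against H4WT. The contrast between the mutants is the test of the difference. By that rule 61 genes (0.413% of those tested) rose and 96 (0.650%) fell in H4K91R alone. The median change of the 61 was 0.59 in H4K91R and 0.10 in H4K91Q, and 9 rose at least 2-fold. For the 96 the medians were -0.54 and 0.00, and 26 fell at least 2-fold. Not being called in H4K91Q does not show that a gene is unchanged there: 43 of the 61 (70.5%) and 70 of the 96 (72.9%) had a change within 0.2 of 0 in H4K91Q. These counts rested on single libraries. Risen and fallen genes numbered 18 and 28 without H4K91R replicate 1, 11 and 26 without H4K91R replicate 2, 20 and 48 without H4K91Q replicate 1, 15 and 30 without H4K91Q replicate 2, and 102 and 173 without H4K91Q replicate 3. Of the 61 and the 96 genes, 10 and 25 were called again without H4K91R replicate 2, and 11 and 18 without H4K91Q replicate 2.

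The 10 largest genes each way were named only if H4K91R overlapped neither other group, so their separation is no added support. Of all genes called in H4K91R alone, 59 of the 61 risen and 95 of the 96 fallen had no such overlap. Several genes that rose in H4K91R alone act in neurons and their progenitors. Wnt7b, a Wnt ligand of the developing cortex and spinal cord (Entrez 22422, chromosome 15, 85535437 to 85581821), stood at 10.9, 11.1 and 9.8 CPM in H4WT, 10.2, 10.6 and 11.2 CPM in H4K91Q and 17.4, 19.4 and 18.6 CPM in H4K91R. The first 2 groups overlapped and all H4K91R libraries lay above both. Its change was 0.79 ± 0.11 against H4WT and 0.79 ± 0.10 against H4K91Q (edgeR, adjusted p = 4.99e-05 and 0.00167). Lmtk3, a neuronal membrane kinase (Entrez 381983, chromosome 7, 45783134 to 45804144), stood at 26.3, 32.1 and 34 CPM in H4WT, 32.3, 33.6 and 38.6 CPM in H4K91Q and 55.6, 57.2 and 57.5 CPM in H4K91R (0.71 ± 0.095 against H4K91Q, edgeR, adjusted p = 0.00209). Kif21b, a neuronal kinesin, stood at 41.8, 42.6 and 51.9 CPM in H4WT, 50.5, 42.4 and 55.8 CPM in H4K91Q and 78.9, 83.6 and 72.6 CPM in H4K91R (0.66 ± 0.11, edgeR, adjusted p = 0.00624). Hic1, a zinc finger repressor of mesenchymal progenitors, is not a neural gene and stood at 45.3, 35.9 and 40.7 CPM in H4WT, 55, 46.3 and 46.2 CPM in H4K91Q and 94.4, 79.8 and 67.3 CPM in H4K91R (0.71 ± 0.12, edgeR, adjusted p = 0.00724). The calls of these 4 genes against H4K91Q held under every alternative tried. Cplx2, complexin of the vesicle fusion machinery, Prdm8, a transcriptional repressor, Arhgef4, Rgs8, Shisa2 and Ank1 differed from H4K91Q by 0.71, 0.75, 0.72, 0.69, 0.91 and 1.06, and their calls were lost in 3 to 6 alternatives each.

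Genes that fell in H4K91R alone were of other kinds. Tfcp2l1, a factor of naive pluripotency (Entrez 81879, chromosome 1, 118627923 to 118685168), stood at 13.2, 16.1 and 15.1 CPM in H4WT, 9.48, 11.9 and 14.8 CPM in H4K91Q and 6.33, 5.58 and 5.51 CPM in H4K91R (-1.03 ± 0.17 against H4K91Q, edgeR, adjusted p = 0.00624). Dppa5a, an RNA-binding protein of stem cells, stood at 73.6, 133 and 83.9 CPM in H4WT, 72, 146 and 92 CPM in H4K91Q and 27, 33.1 and 50.3 CPM in H4K91R (-1.51 ± 0.28, edgeR, adjusted p = 0.0119). Its spread within groups was wide, and the naming rule required that H4K91R not overlap the others. Dppa2, a chromatin protein of stem cells, and Pramel13 differed from H4K91Q by -1.60 and -1.40. Trim6, an E3 ubiquitin ligase of the tripartite motif family (Entrez 94088, chromosome 7, 104218795 to 104235152), stood at 23.1, 25.6 and 22.9 CPM in H4WT, 21.3, 24.9 and 26.2 CPM in H4K91Q and 12.7, 13.8 and 14.5 CPM in H4K91R (-0.82 ± 0.11, edgeR, adjusted p = 0.00181). Ifit3, an interferon-induced protein, stood at 11.9, 13.8 and 10.3 CPM in H4WT, 13.1, 12.8 and 10.5 CPM in H4K91Q and 7.14, 6.76 and 6.79 CPM in H4K91R (-0.81 ± 0.14, edgeR, adjusted p = 0.00745). In both, H4WT and H4K91Q overlapped and H4K91R lay below. Eomes and Krt7, made in trophoblast, Ccn3 and Cavin3 made up the rest of the 10 largest, at -1.30, -1.15, -1.55 and -0.91 against H4K91Q. Except for Dppa2, Pramel13, Tfcp2l1, Trim6 and Ifit3, each of the 10 lost its call in at least 1 alternative.

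**Figure D4:**
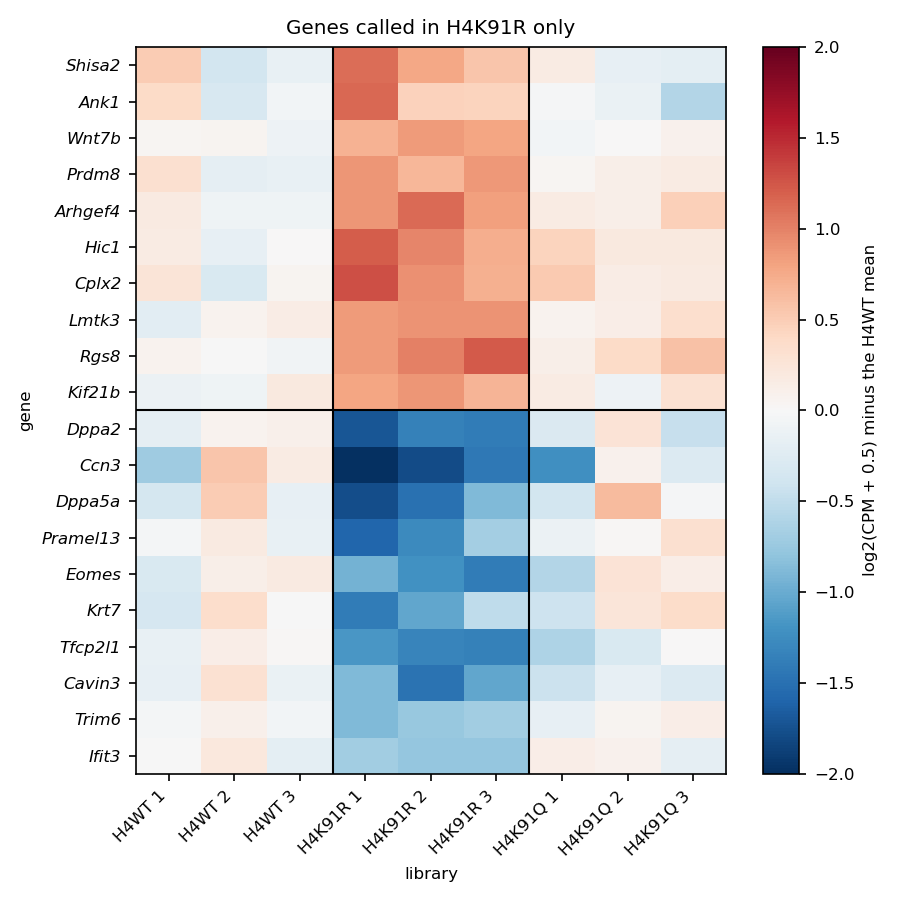
Log2 of CPM plus 0.5 minus the H4WT mean (color scale from -2 to 2) in each of the 9 libraries for the 10 largest genes each way called in H4K91R alone. The 3 H4K91R columns are red for the upper 10 genes and blue for the lower 10, while the H4K91Q columns lie nearer to 0 than the H4K91R columns for most genes, with all 3 above 0 for Hic1 and all 3 below 0 for Cavin3.

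Against H4K91Q directly, 2.78% of tested genes were higher in H4K91R (411) and 2.37% were lower (350). The presynaptic list had 15 of 32 members higher and 0 lower, and the chromatin and splicing list 11 of 32 higher and 0 lower. The microtubule-associated proteins had 9 of 23 higher and 1 lower. Against H4WT, these lists rose in H4K91Q as well, with 26, 23 and 17 members risen and medians of 1.17, 1.08 and 1.41. Members risen in H4K91R alone numbered 3, 1 and 0, so most of these differences are of degree. Nrxn2 differed by 0.76 ± 0.11 and Slitrk2 by 0.61 ± 0.10 (edgeR, adjusted p = 0.00245 and 0.00644), with all H4K91R libraries above all H4K91Q libraries, and both calls held under every alternative tried. So did those of Robo3 (0.90), Hes5 (1.05) and Epha5 (0.62). The list counts did not. The presynaptic count was 4 without H4K91R replicate 2, 9 without H4K91R replicate 3, 5 without H4K91Q replicate 1 and 3 without H4K91Q replicate 2. The count of the chromatin and splicing list was 1, 5, 1 and 3 without the same libraries, and that of the microtubule list 1, 1 and 1 without H4K91R replicate 2, H4K91Q replicate 1 and H4K91Q replicate 2. On the lower side, 7 of 24 serpins were lower in H4K91R than in H4K91Q and 1 was higher. The lower ones included Serpinb9b, an intracellular protease inhibitor (-0.91 ± 0.17, edgeR, adjusted p = 0.01), named after its values were seen and 1 of a cluster of similar copies, whose call was lost in 1 alternative. The lower count was 2 without H4K91R replicate 1, 0 without H4K91R replicate 2, 3 without H4K91Q replicate 1, 1 without H4K91Q replicate 2 and 4 without H4K91Q replicate 3. Further, 4 of 19 trophoblast genes were lower in H4K91R than in H4K91Q, with Eomes and Krt7 among them. That count was 1 without H4K91R replicate 2, 7 without H4K91R replicate 3 and 1 without H4K91Q replicate 2. The tripartite motif family had 6 lower and 4 higher of 44, and 5 of its members (Trim6, Trim12c, Trim30a, Trim30d and Trim47, named after their values were seen) fell in H4K91R alone. The Trim12c call against H4WT (edgeR, adjusted p = 0.0381) was lost in 10 alternatives. Without 1 library of either mutant, its lower count was 1 or 2, except without H4K91Q replicate 3, where it was 6.

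**Figure D5:**
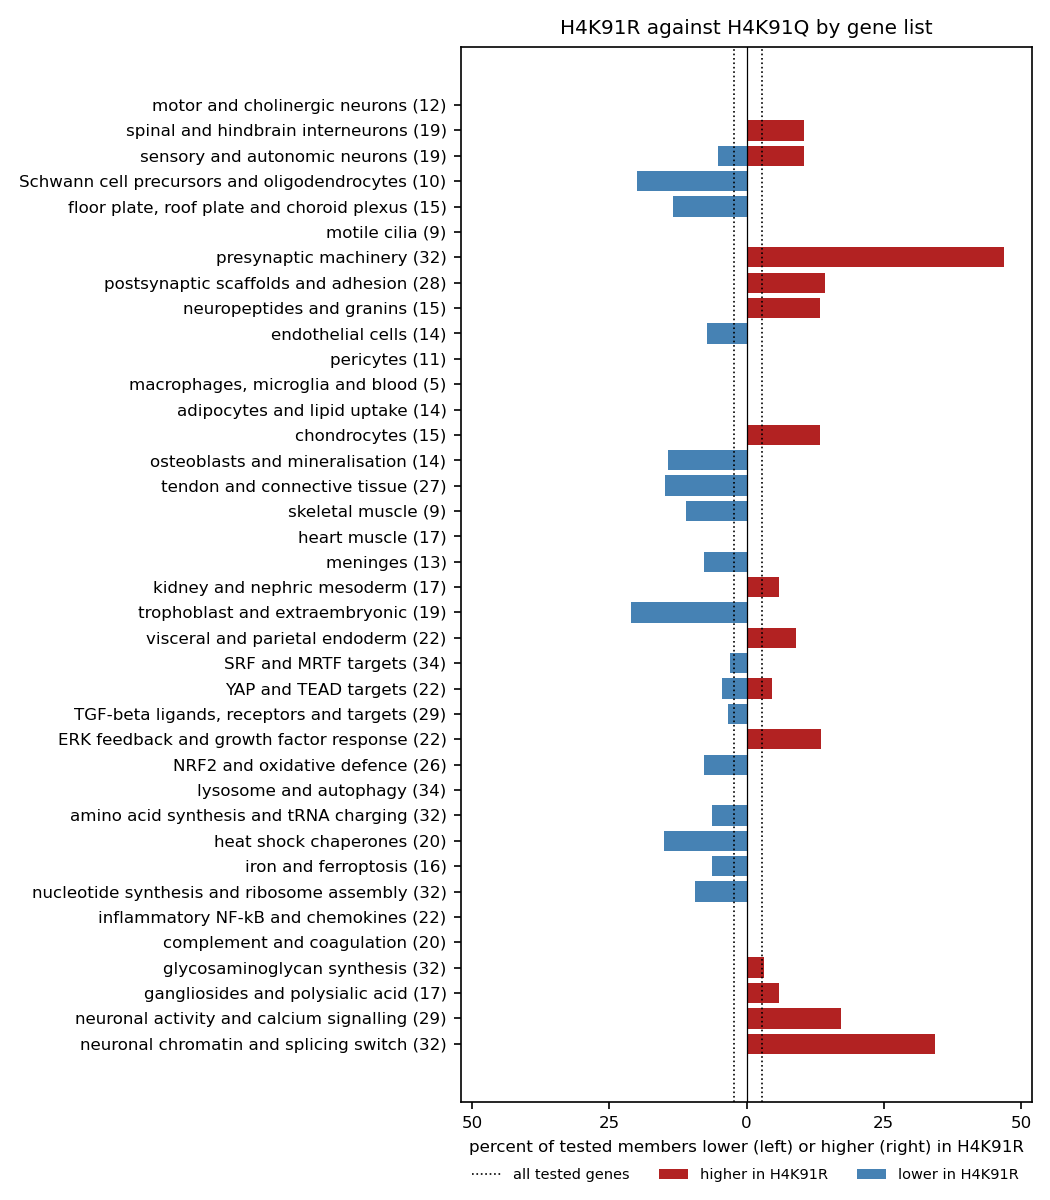
Share of tested members of each pathway or cell type list (gene families are not drawn) that were lower (blue, left) or higher (red, right) in H4K91R than in H4K91Q, in percent, with the shares of all tested genes (2.37% and 2.78%) as dotted lines. Of the lists drawn, the presynaptic list has the longest bar to the right and the trophoblast list the longest to the left, from 15 of 32 and 4 of 19 genes.

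A few genes were called in opposite directions in the mutants. Fallen in H4K91R and risen in H4K91Q were 30 genes (0.203% of those tested), and 1 gene (0.00677%) rose in H4K91R and fell in H4K91Q. Otx2, a homeobox factor of epiblast and forebrain (Entrez 18424, chromosome 14, 48656781 to 48667644), stood at 0.481, 2.0 and 1.59 CPM in H4WT, 0.173, 0.708 and 0.492 CPM in H4K91R and 5.88, 6.88 and 6.56 CPM in H4K91Q. H4K91R and H4WT overlapped at these low levels, where 2 H4K91R libraries lay above the lowest H4WT library, and H4K91Q lay above both. The log2 changes against H4WT were -1.84 ± 0.49 and 2.05 ± 0.31 (edgeR, adjusted p = 0.00783 and 0.000141). The H4K91R call was lost without H4WT replicate 2 (adjusted p = 0.118). Nanog, a core pluripotency factor, stood at 3.37, 4.74 and 3.31 CPM in H4WT, 1.38, 2.04 and 3.25 CPM in H4K91R and 14.1, 22.2 and 15.8 CPM in H4K91Q, and its H4K91R call (-0.94 ± 0.31, edgeR, adjusted p = 0.0259) was lost in 4 alternatives, with adjusted p up to 0.193. Dnmt3l, a cofactor of DNA methylation in germ cells, stood at 4.45, 10.3 and 4.9 CPM in H4WT, 0.633, 2.91 and 3.05 CPM in H4K91R and 10.8, 23.6 and 15.4 CPM in H4K91Q, and Utf1, a chromatin protein of stem cells, at 2.16, 4.89 and 3.06 CPM in H4WT, 0.921, 1.81 and 1.67 CPM in H4K91R and 9.61, 16.4 and 12.8 CPM in H4K91Q. Both lost the H4K91R call without H4WT replicate 2 (edgeR, adjusted p = 0.103 and 0.11). Zfp980, a zinc finger gene, stood at 2.04, 3.3 and 1.96 CPM in H4WT, 0.518, 1.49 and 0.492 CPM in H4K91R and 6.47, 12.7 and 7.03 CPM in H4K91Q. It is 1 of 5 zinc finger genes of this group, with Zfp534, Zfp979, Zfp981 and Zfp985, named after their values were seen, that lie between 145670697 and 147702631 on chromosome 4. Without H4WT replicate 2, the call of H4K91R against H4WT was lost for 4 of the 5, all but Zfp979. These are similar copies, so the division of reads among them is uncertain. The gene in the other direction was Vgf, a neuropeptide precursor, at 21.2, 23.6 and 23.4 CPM in H4WT, 29.3, 26.7 and 29.3 CPM in H4K91R and 14.3, 19.1 and 17.8 CPM in H4K91Q. The 3 groups did not overlap, with 0.32 ± 0.11 in H4K91R and -0.42 ± 0.11 in H4K91Q against H4WT (edgeR, adjusted p = 0.0321 and 0.00764). Its H4K91R call was lost without H4WT replicate 1 or 3 and without H4K91R replicate 1 or 3, with adjusted p up to 0.0904.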

How the data were processed

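RNeasy-purified poly(A) RNA was made into NEBNext Ultra II libraries, per the labels' protocols. The authors deposited 1 table of estimated counts per gene, whole numbers for 9 libraries, and Salmon 0.8.2, DESeq2 and mm10 are named in the submitters' processing notes without a role. Salmon estimates need not be whole, so the deposited counts were taken as rounded estimates, and how reads shared by similar genes were divided is not given in the sources used here. Of 24100 rows, 24045 matched a symbol and 55 did not.

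Counts were analysed in R 4.3.3 with edgeR 4.0.16 (filterByExpr by group, TMM, quasi-likelihood fit with 1 mean per group over all 9 libraries, so that the groups share 1 estimate of the spread) and Benjamini-Hochberg adjustment at 0.05. The model was tested on simulated data. The floor of 3 counts corresponds to 0.111 to 0.367 CPM, which covers counting error only. Alternatives used DESeq2 1.42.0, limma 3.58.1 and the settings named in the closing section. The genes named included the 10 largest changes each way among called genes of at least 20 CPM without overlap of the groups. The 10 largest each way of those called in H4K91R alone were named too (at least 5 CPM, H4K91R overlapping neither other group). So were up to 6 each way called in opposite directions, and up to 3 called members of each list per direction by adjusted p (at least 1 CPM). H4 genes of at least 1 CPM were added, and genes outside that rule are marked as chosen after their values were seen. The comparison and the gene lists were chosen with earlier results of these data known. Gene positions are those of GRCm38.p6. Some items are not reported here.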

Additional observations from a re-analysis of the deposited data

Results flagged for a closer look

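The mutants differed from each other directly for 411 genes that were higher and 350 that were lower in H4K91R than in H4K91Q (edgeR's quasi-likelihood test). Against the shared H4WT libraries, 1 gene rose in H4K91R and fell in H4K91Q, and 30 genes fell in H4K91R and rose in H4K91Q. The log2 difference of H4K91R minus H4K91Q was 0.74 for Vgf, -3.89 for Otx2, -3.51 for Tdgf1, a Nodal coreceptor, and -3.39 for Zfp980. It was -3.19 for Utf1, -3.04 for Nanog and -3.03 for Dnmt3l. Tdgf1 stood at 4.21, 7.04 and 2.69 CPM in H4WT, 0.518, 2.28 and 2.66 CPM in H4K91R and 12.3, 25.3 and 19.6 CPM in H4K91Q, and its call in H4K91R against H4WT was lost with DESeq2, without H4WT replicate 2 and without H4K91R replicate 1.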

How the results depend on the processing

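Library size scaling in place of TMM gave 5031 risen and 2013 fallen genes against H4WT in place of 3092 and 3705, and 63 fallen genes in H4K91R alone in place of 96. DESeq2 gave 112 risen genes in H4K91R alone in place of 61, and a minimum change of 1.5-fold in both contrasts left 22 risen and 38 fallen. Leaving out 1 library at a time gave 2681 to 3086 risen and 3170 to 3754 fallen genes against H4WT, and 11 to 102 risen and 26 to 173 fallen genes in H4K91R alone. The signs that turned were those of H4c12 (0.03 with library size scaling, 0.41 without H4WT replicate 3, 0.20 without H4K91R replicate 2, from -0.92 to 0.41 over single libraries left out), Slc17a7 (-0.12 without H4WT replicate 3, from -0.12 to 0.48 over single libraries left out) and Slc1a4, an amino acid transporter (0.02 with library size scaling). None of these 3 genes passed the test under those settings, and the cause was not tested. With the replicate number as a block, 3107 genes rose and 3644 fell against H4WT, and 82 rose and 113 fell in H4K91R alone. Same-numbered libraries correlated from -0.163 to 0.198 in their deviations from the group means, so the numbers were not taken to pair them. Of 4880 values against H4WT, for 288 named genes under 17 settings, 4715 kept direction and side of the threshold, and 42 genes lost a call at least once. Of 2009 values against H4K91Q for 126 genes, 407 lost the call and none changed sign. Low counts limit the genes near 1 CPM, and the contrast between the mutants rests on 3 libraries each.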

Other observations

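Among the 96 genes that fell in H4K91R alone were others of shared function, picked out after their values were seen. Ncl, the nucleolar protein nucleolin, stood at 1243, 1249 and 1152 CPM in H4WT, 900, 921 and 963 CPM in H4K91R and 1191, 1269 and 1080 CPM in H4K91Q. The H4K91R libraries lay below all others, with -0.39 ± 0.073 against H4WT and -0.35 ± 0.073 against H4K91Q (edgeR, adjusted p = 0.000728 and 0.0187). Mphosph10, of the small-subunit processome, differed by -0.47 ± 0.086 and -0.41 ± 0.085 in the same comparisons (edgeR, adjusted p = 0.000595 and 0.0174). Npm1 (nucleophosmin), Nop58, Esf1, Cebpz and Riok2, which act in ribosome assembly, changed against H4WT by -0.28, -0.37, -0.39, -0.27 and -0.24. These changes were small, and each of the 7 lost its call against H4K91Q in 3 or more alternatives. With library size scaling, Npm1, Nop58, Esf1, Cebpz and Riok2 also lost the call against H4WT. For Npm1 and Riok2 that call was lost in 5 and 6 alternatives. The list of nucleotide synthesis and ribosome assembly, with 19 of 32 fallen in H4K91R, also had 14 fallen and 1 risen in H4K91Q (median -0.17). Only 3 of its members fell in H4K91R alone.

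Genes of germ cells were another kind. Rnf17, a tudor-domain protein of spermatogenesis, stood at 12.5, 14.2 and 11 CPM in H4WT, 8.4, 10.4 and 7.98 CPM in H4K91R and 13.5, 14.7 and 12.8 CPM in H4K91Q, with no overlap of H4K91R with the others (-0.61 ± 0.13 against H4K91Q, edgeR, adjusted p = 0.0215). Its call was lost in 4 alternatives against H4K91Q and in 2 against H4WT. Piwil2, of the piRNA pathway, Tex11, of meiosis, Rbm46 and Mageb16 differed from H4K91Q by -1.15, -0.69, -0.59 and -0.34, and each lost that call in at least 8 alternatives. Calls against H4WT were lost in 8 alternatives for Rbm46 and in 2 for Mageb16. Interferon-induced genes besides Ifit3 were also among the genes that fell in H4K91R alone. Samd9l stood at 19.6, 19.4 and 22.8 CPM in H4WT, 15.6, 17.4 and 14.7 CPM in H4K91R and 26.9, 22.3 and 24 CPM in H4K91Q (-0.62 ± 0.11 against H4K91Q, edgeR, adjusted p = 0.00798), and its call against H4K91Q held under every alternative tried, while that against H4WT was lost in 4. Ifi44, Xaf1 and Ifi35 differed from H4K91Q by -0.55, -0.40 and -0.41, with those calls lost in 3, 3 and 4 alternatives. Against H4WT the call was lost in 1 alternative for Xaf1 and in 6 for Ifi35.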
